A study of Caenorhabditis elegans with 95 samples.

Results

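The fatty acid desaturase genes fat-1 to fat-7 of Caenorhabditis elegans were followed across 95 RNA-seq libraries of whole worms on doxycycline (Dox). They were chosen by symbol, all 7 were found among the 46904 genes of the count table, and all 7 were among the 17058 that a filter on low counts kept. RNA came from 85 RIAILs (recombinant inbred advanced intercross lines, 1 library each), from N2 (Bristol, 4 libraries) and from CB4856 (Hawaii, 6 libraries). Dox, which acts on translation in mitochondria, was present at 15 μg/mL for every group, so levels were compared between strains and never with untreated worms. The RIAILs descend from CB4856 and QX1430, a strain with an N2 background and deletions of confounder genes, so the N2 libraries are not those of a parent of the lines, although N2 and CB4856 together are called parental here. By the methods of the study, worms were kept on Dox from synchronized L1 larvae and harvested at L4, while the sample labels describe exposure from the L4 stage and a later transfer to 5FU, and which of them holds for these libraries is not settled.

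Library totals were 22121202 to 23879871 counts in the RIAILs, 22901248 to 23715474 in N2 and 22981326 to 23506189 in CB4856, so depth was nearly even. The first letter of a library's name gives 7 series, A to G, and both N2 and CB4856 have a library only in B, F and G. Libraries differed widely in genes of stage and germline: over the RIAILs the summed level of 20 molting genes ran from 1021 to 9716 CPM (counts scaled to library size, with the trimmed mean of M values, TMM) and that of 12 oocyte genes from 194 to 2843 CPM. The lines QX501 and QX505 stood apart by the summed level of 14 male genes, 188 and 101 CPM beside a median of 25.1 CPM. Without them, 5 of 7 desaturase genes differed between series, 11 of 21 pairs of these genes were correlated and 0 of 7 varied among RIAILs, as with them. Of all genes, 10286 of 16649 differed between series and 798 of 16975 varied among RIAILs without these 2 lines. All 10 intestinal markers listed were above 0 in every library.

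Desaturases put double bonds into fatty acyl chains and draw their electrons through cytochrome b5. In worms, the delta-9 enzymes FAT-5, FAT-6 and FAT-7 make monounsaturated fatty acids, FAT-5 chiefly from palmitic acid and FAT-6 and FAT-7 from stearic acid to give oleic acid. FAT-2 turns oleic acid into linoleic acid, FAT-3 and FAT-4 add the delta-6 and delta-5 double bonds of the long polyunsaturated chains, and FAT-1 turns omega-6 into omega-3 fatty acids. Intestine and epidermis are main sites of fatty acid synthesis in the worm, and the nuclear receptors NHR-49 and NHR-80, the SREBP homologue SBP-1 and the Mediator subunit MDT-15 are known regulators of the delta-9 genes.

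In the WBcel235 genome, 5 of the 7 genes lie on chromosome IV. fat-4 (chromosome IV, 9799429 to 9802226) ends 797 bases before fat-3 (chromosome IV, 9803023 to 9806119) on the same strand. fat-1 (chromosome IV, 13315644 to 13318811) and fat-2 (chromosome IV, 13323873 to 13326395) are also near each other on the plus strand. fat-6 (chromosome IV, 11913692 to 11915687) and fat-7 (chromosome V, 7151353 to 7153146) are on minus strands of different chromosomes. These paralogs are close in sequence, and how the counting treated reads that match both is not stated, so the level of each is uncertain to that extent. The end of fat-5 (chromosome V, 17725004 to 17726818) overlaps by its last bases twk-42 (chromosome V, 17726791 to 17732616), a potassium channel gene on the opposite strand with a median of 228 counts, and without a stated strand setting reads of the overlap cannot be told apart. The summed exons were 1104 (fat-5) to 1540 (fat-4) bases long.

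Among the delta-9 genes, fat-6 was by far the most abundant. It ran from 186 CPM (QX580) over a median of 410 to 657 CPM (QX552) across the RIAILs. fat-7 ran from 7.46 CPM (QX497) over a median of 32.7 to 128 CPM (QX560). fat-5, the palmitoyl desaturase gene, had the lowest levels, from 2.04 CPM (QX579) over a median of 8.10 to 37.7 CPM (QX540). The highest and lowest lines therefore differed by a factor of 18.5 for fat-5 and 17.1 for fat-7, but of 3.53 for fat-6.

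For the genes of polyunsaturated fatty acids the highest line was above the lowest by a factor of 2.51 (fat-2) to 5.38 (fat-3). fat-2, the delta-12 gene, ran from 229 CPM (QX584) over a median of 358 to 575 CPM (QX552). fat-4, the delta-5 gene, had the same lines at its ends, at 97.2 CPM in QX584 and 304 CPM in QX552, with a median of 159 CPM. fat-3, the delta-6 gene, ran from 50.8 CPM (QX564) over a median of 110 to 273 CPM (QX589). QX589 was also highest for fat-1, the omega-3 gene, at 409 CPM, with a median of 241 CPM and a lowest value of 161 CPM in QX546.

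Per kilobase of exon, the order in the RIAILs was fat-6 (352 ± 87.1 CPM per kb, SD, n = 85), fat-2 (293 ± 52.4), fat-1 (173 ± 28), fat-4 (110 ± 25.2), fat-3 (76.5 ± 25.2), fat-7 (35.1 ± 22.6) and fat-5 (9.59 ± 7.77). As shares of the summed desaturase level per kb, fat-6 held 33.3% ± 4.89 (SD, n = 85) and fat-2 28% ± 2.14, while fat-7 held 3.37% ± 2.01 and fat-5 0.891% ± 0.653. In CPM per kb, neighbours in the order above overlapped within their SDs, except fat-2 with fat-1 and fat-1 with fat-4. All genes were measured in the same libraries, so overlap of SDs is no test of the order. On the log2 scale fat-6 exceeded fat-7 per kb by 3.55 ± 0.909 (SD, n = 85) in the RIAILs, 2.95 ± 0.742 (n = 4) in N2 and 3.26 ± 0.356 (n = 6) in CB4856.

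**Figure D1:**
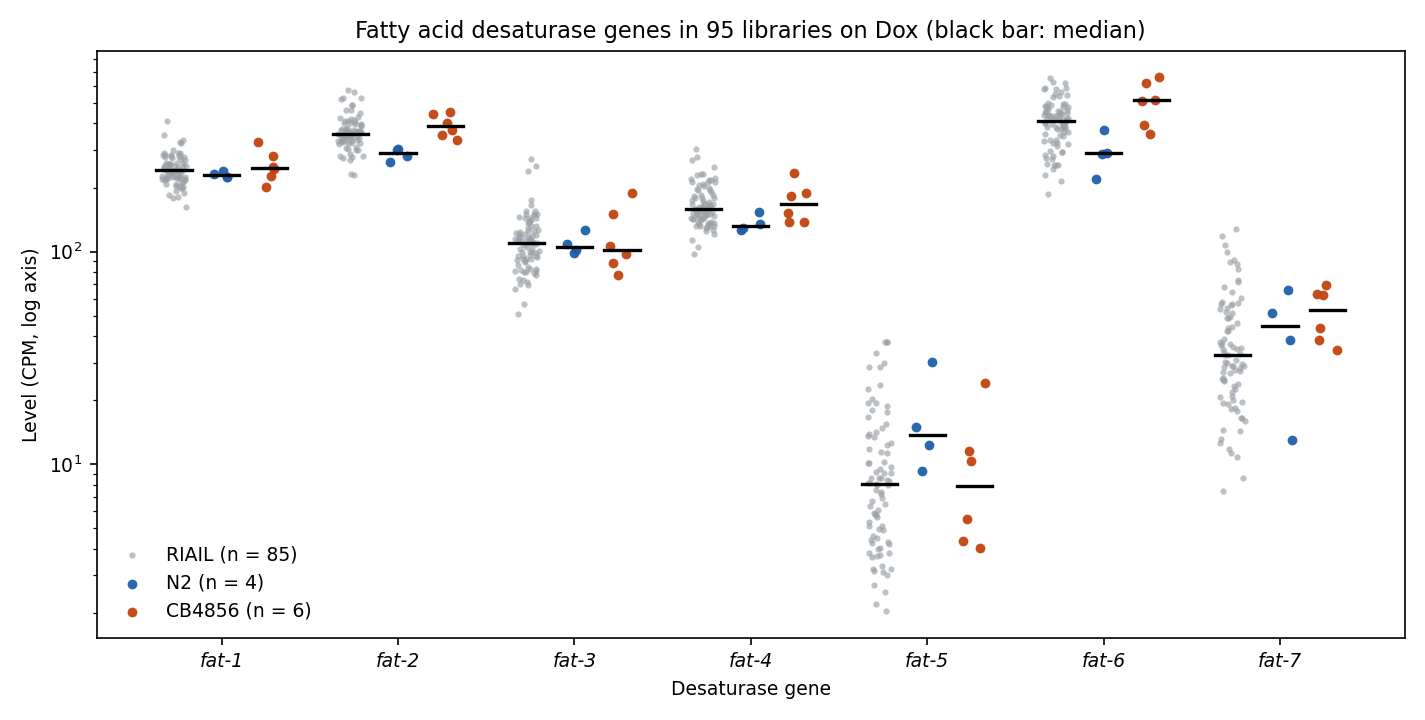
Level of each desaturase gene in CPM on a log axis, 1 point per library, for 85 RIAILs (grey), 4 N2 (blue) and 6 CB4856 (orange) libraries, with black bars at the medians. The N2 points of fat-2 (263 to 302 CPM) lie below the CB4856 points (336 to 452 CPM), and the points of fat-5 and fat-7 spread most.

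Between the parental strains, fat-2 and fat-6 were higher in CB4856 than in N2. These 2 of 7 genes were called by edgeR's quasi-likelihood test (Benjamini-Hochberg adjusted p under 0.05 over 15718 genes), beside 16.1% of all genes tested. Of all genes 8.79% were called higher in CB4856 and 7.28% lower. The median log2 fold change (CB4856 minus N2) was 0.35 over the 7 desaturase genes and -0.0048 over all genes tested. Nothing in the labels says that the libraries of a strain came from separate cultures, so the p-values measure the spread between these libraries, which may be technical.

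fat-2 was at 302, 263, 299 and 281 CPM in the N2 libraries of series B, D, F and G. In the CB4856 libraries it was, by series in the order A, B, C, E, F, G, at 403, 336, 443, 353, 375 and 452 CPM. All 6 CB4856 libraries were above all 4 N2 libraries, a separation found for 13.7% of all genes. The log2 fold change was 0.51 (SE 0.118, edgeR adjusted p = 0.0138).

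fat-6 was at 373, 287, 292 and 219 CPM in the N2 libraries of series B, D, F and G. In the CB4856 libraries it was, by series in the same order, at 358, 517, 622, 395, 510 and 659 CPM. The groups met at 1 pair, the CB4856 library of series A being below the N2 library of series B, and the other 5 CB4856 libraries were above all N2 libraries. The log2 fold change was 0.85 (SE 0.215, edgeR adjusted p = 0.0217).

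In the 3 series with both strains, CB4856 was above N2 for fat-2 by 0.15, 0.32 and 0.69 and for fat-6 by 0.47, 0.81 and 1.59 on the log2 scale in series B, F and G. With the library letter as a block, which rests on those 3 series, 0 of 7 genes were called by edgeR (1 at an unadjusted p under 0.05, with fat-2 at 0.43, adjusted p = 0.328, and fat-6 at 0.99, adjusted p = 0.174). That fit called 481 of all 15718 genes, against 2525 without the block, so calls were fewer over all genes too. Without 1 of the N2 libraries of series D, F or G (replicates 2, 3 and 4), the edgeR adjusted p of fat-6 rose to 0.0623, 0.0625 and 0.0563, and 1 of the 7 genes remained called. Over all genes these fits called 1690 of 15888, 1570 of 15879 and 1985 of 15861.

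Markers of some tissues moved with strain as well. Their counts are to be read beside the 8.79% of all genes called higher in CB4856 and the 7.28% called lower. Of the 10 intestinal markers 4 were higher in CB4856 and 0 lower by the same test (ges-1, elt-2, pept-1 and elt-7), with 8 at an unadjusted p under 0.05. The summed level of all 10 was 4393 to 6508 CPM in N2 and 5665 to 8780 CPM in CB4856. The mean z score of the intestinal list did not overlap, with -2.33 to -0.556 in N2 and -0.501 to 1.16 in CB4856. Of 12 oocyte genes 5 were lower in CB4856 and 0 higher (12 at an unadjusted p under 0.05), with summed levels of 297 to 2604 CPM in N2 and 330 to 884 CPM in CB4856. Of 23 sperm genes 3 were lower and 0 higher (8 at an unadjusted p under 0.05). The 3 were msp-19, msp-53 and msp-64, with log2 fold changes of -9.42, -9.64 and -4.80 against a list median of -0.90. At least 1 library had msp-19 at 0, and the same held for msp-53. These calls are therefore not taken as a change of sperm as a tissue. Of 8 epidermal, 20 molting, 6 vitellogenin and 7 adult cuticle genes edgeR called 0 (1, 1, 0 and 0 at an unadjusted p under 0.05), with median log2 fold changes of 0.12, -0.03, 0.80 and 0.36. In bulk worms, fewer cells of a tissue and less RNA per cell cannot be told apart. In fits added after the data were seen, with the intestinal score as a covariate, edgeR called fat-6 (1.51, adjusted p = 0.0204) and fat-7 (1.91, adjusted p = 0.0476) but not fat-2 (0.51, adjusted p = 0.135). It called 1289 of all 15718 genes there. Since that score did not overlap between the strains, the fit cannot reliably separate score from strain, and no conclusion is drawn from it. With the oocyte score as a covariate edgeR called 0 of 7 genes (2 at an unadjusted p under 0.05), with fat-2 at 0.40 (adjusted p = 0.0755) and fat-6 at 0.52 (adjusted p = 0.125). Of all 15718 genes 2780 were called in this fit.

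The other 5 genes did not pass the test between strains. fat-4 was at 126 to 154 CPM in N2 and 138 to 233 CPM in CB4856 (log2 fold change 0.39, SE 0.167, edgeR adjusted p = 0.140). fat-1 was at 223 to 238 CPM in N2 and 201 to 328 CPM in CB4856 (0.20, SE 0.128). The CB4856 libraries enclosed the N2 range for fat-1 and for fat-3. fat-3 was at 98.7 to 126 CPM in N2 and 77.9 to 188 CPM in CB4856 (0.18, SE 0.239). fat-7 was at 13 to 65.7 CPM in N2 and 34.3 to 69.8 CPM in CB4856 (0.35, SE 0.386). fat-5 was at 9.25 to 30.2 CPM in N2 and 4.03 to 24 CPM in CB4856 (-0.70, SE 0.533), and within series it was lower in CB4856 in B and F and higher in G. Single libraries weighed heavily in these values. Leaving out 1 library at a time, the log2 fold change of fat-7 ran from 0.04 (without N2 replicate 4, series G) to 0.68 (without N2 replicate 1, series B). That of fat-5 ran from -1.19 (without CB4856 replicate 4, series G) to -0.20 (without N2 replicate 1). For fat-1 it ran from 0.11 (without CB4856 replicate 5, series A) to 0.26, and for fat-3 from -0.02 (without the same library) to 0.28 (without CB4856 replicate 2, series E).

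Other genes of the pathway were set beside the desaturases. The counts of called genes are to be read beside the 8.79% of all genes called higher in CB4856 and the 7.28% called lower. Of 12 genes of fatty acid elongation, 4 were higher in CB4856 and 0 lower, namely the elongase genes elo-2 (0.63, SE 0.173), elo-5 (0.49, SE 0.118) and elo-6 (0.60, SE 0.118) and the ketoacyl reductase gene let-767 (0.30, SE 0.0864). elo-2 elongates palmitic acid, and elo-5 and elo-6 act in the making of branched-chain fatty acids. Of 13 regulators, 3 were higher and 0 lower: sbp-1 (0.54, SE 0.112), the SREBP chaperone gene scp-1 (0.48, SE 0.148) and the nuclear receptor gene nhr-13 (0.52, SE 0.133). nhr-49, nhr-80 and mdt-15 did not pass the test (0.15, 0.01 and 0.20). Of 5 genes of fatty acid synthesis, the ATP citrate lyase genes acly-1 (0.72, SE 0.198) and acly-2 (-0.36, SE 0.110) were called in opposite directions. Among 8 genes of cytochrome b5 and membrane lipids, pcyt-1, which encodes an enzyme of phosphatidylcholine synthesis, was higher (0.47, SE 0.124), and neither of the other desaturase genes ttm-5 and drd-5 was called. The edgeR adjusted p-values of these 10 genes ran from 0.00620 (elo-6) to 0.0494 (scp-1). The list medians were 0.28 for elongation, 0.18 for regulators, 0.09 for synthesis and 0.25 for cytochrome b5 and membrane lipids.

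Set beside the parental strains, most RIAILs had more fat-2 than N2: 75 of 85 lay above the highest N2 library and 2 below the lowest, while 9 lay above the highest CB4856 library. For fat-6, 58 of 85 lay above the highest N2 library, 0 above the highest CB4856 library and 2 below the lowest N2 library. For fat-5 the order was the other way, with 53 of 85 RIAILs below the lowest N2 library and 4 above the highest. For fat-7, 46 of 85 were below the lowest CB4856 library. These counts are descriptions, since 4 and 6 libraries set the limits.

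Whether the lines differ beyond the spread of libraries of 1 strain was asked of all 85 RIAILs at once, with that spread taken from N2 and CB4856. Each N2 library came from another series, as did each CB4856 library, so this spread includes any difference between series. By edgeR's quasi-likelihood test, 0 of 7 desaturase genes varied among RIAILs (0 at an unadjusted p under 0.05), beside 5.52% of all 17058 genes. The unadjusted p was 0.0573 for fat-2 and 0.0642 for fat-7 (adjusted 0.312 and 0.327), and adjusted values of the other 5 ran from 0.446 to 0.615. limma voom also called 0 genes, with 1, fat-2, at an unadjusted p under 0.05. Of the 40 other pathway genes 0 were called, the smallest adjusted p-values being those of nhr-80 (0.106), sbp-1 (0.112), elo-9 (0.185), elo-7 (0.205) and pod-2 (0.226), the acetyl-CoA carboxylase gene.

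The SDs show how wide the same-strain spread was. On the log2 scale fat-5 had an SD of 1.03 across RIAILs and 0.90 within a parental strain. fat-7 had 0.88 and 0.71. These genes varied widely even between libraries of 1 strain, each of which came from another series. The strains were unlike in this: SDs in N2 and CB4856 were 1.02 and 0.43 for fat-7, 0.72 and 0.99 for fat-5, and 0.16 and 0.49 for fat-3. With the spread of CB4856 only, edgeR's unadjusted p was 0.00852 for fat-7 (adjusted 0.130). With that of N2 only it was 0.255 for fat-7 and 0.0260 for fat-3 (adjusted 0.372). Of all genes, 505 of 16796 and 163 of 17035 were called in these 2 fits. fat-2 had 0.25 and 0.15, a ratio of 1.66, beside a median ratio of 1.13 over the 9277 genes whose log2 CPM averaged at least 3. The ratios of the other 6 genes ran from 1.08 (fat-3) to 1.26 (fat-4). The test had 1 library per line and 8 residual degrees of freedom, and a p that misses the threshold does not show that the lines have equal levels.

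Levels differed between library series for 5 of the 7 genes (edgeR's quasi-likelihood F test over the 85 RIAILs, with Benjamini-Hochberg adjustment). Of all genes 61.4% were called, so the share among the desaturases was near that of all genes. The edgeR adjusted p was 4.74e-08 for fat-1, 3.72e-07 for fat-3, 9.69e-05 for fat-4, 0.000526 for fat-7 and 0.0253 for fat-2, against 0.452 for fat-5 and 0.291 for fat-6. Each line has its library in 1 series only, so for the RIAILs a series and the lines in it cannot be told apart.

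fat-1 and fat-3 were highest in series A and lowest in series C. fat-1 had a mean of 308 ± 59.3 CPM (SD, n = 7) in series A, 263 ± 17.7 (n = 14) in G, 260 ± 37.4 (n = 11) in E, 246 ± 36.9 (n = 10) in B, 237 ± 23.3 (n = 19) in F, 228 ± 13.2 (n = 13) in D and 201 ± 29.3 (n = 11) in C. fat-3 had 190 ± 62.7 CPM (n = 7) in series A and 91.2 ± 25.3 (n = 11) in C, a log2 difference of 1.05. The CB4856 libraries, which are of 1 strain, had the same series at the top for both genes. There fat-1 was at 328 CPM in series A and 201 CPM in C, the highest and the lowest of 6, and fat-3 was at 188 CPM in A, the highest, and at 77.9 CPM in E, the lowest. N2 has no library in series A or C. Its fat-1 levels lay close together and in another order than the RIAIL means, at 238 CPM in F, 233 in D, 224 in B and 223 in G, whereas its fat-3 was highest in G (126 CPM) and lowest in F (98.7 CPM).

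fat-7 followed another order. It had 64.4 ± 28.9 CPM (SD, n = 11) in series C and 54.7 ± 31 (n = 10) in B, but 24.6 ± 14 (n = 14) in G and 21.9 ± 6.72 (n = 7) in A. Among the CB4856 libraries it was lowest in series A (34.3 CPM) and at 63 CPM in C, and among the N2 libraries it was lowest in G (13 CPM) and highest in B (65.7 CPM). fat-4 was highest in series C (200 ± 35 CPM, n = 11) and A (196 ± 38.8, n = 7) and lowest in F (141 ± 22.1, n = 19). fat-2 ran from 421 ± 92.9 CPM in A (n = 7) to 338 ± 58.9 in F (n = 19) and was not called without series A (edgeR adjusted p = 0.0678). Series explained 47.5% of the variance in log2 CPM for fat-1, 40.2% for fat-3, 32.6% for fat-4, 29.3% for fat-7, 17.4% for fat-2, 10.5% for fat-6 and 9.98% for fat-5, beside a median of 23.7% over the 9277 genes.

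Marker lists moved with the series too. The mean vitellogenin score was 1.09 in series A and -1.10 in C, the intestinal score was 0.837 in A and -0.565 in F, and the molting score was 0.474 in C and -0.448 in A. With the molting, sperm and oocyte scores as covariates the 5 genes stayed called and fat-5 joined them (edgeR adjusted p = 0.00760). That fit called 8333 of all 16686 genes, against 10251 without the covariates. The part of the vitellogenin and intestinal scores in the series differences was not tested.

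**Figure D2:**
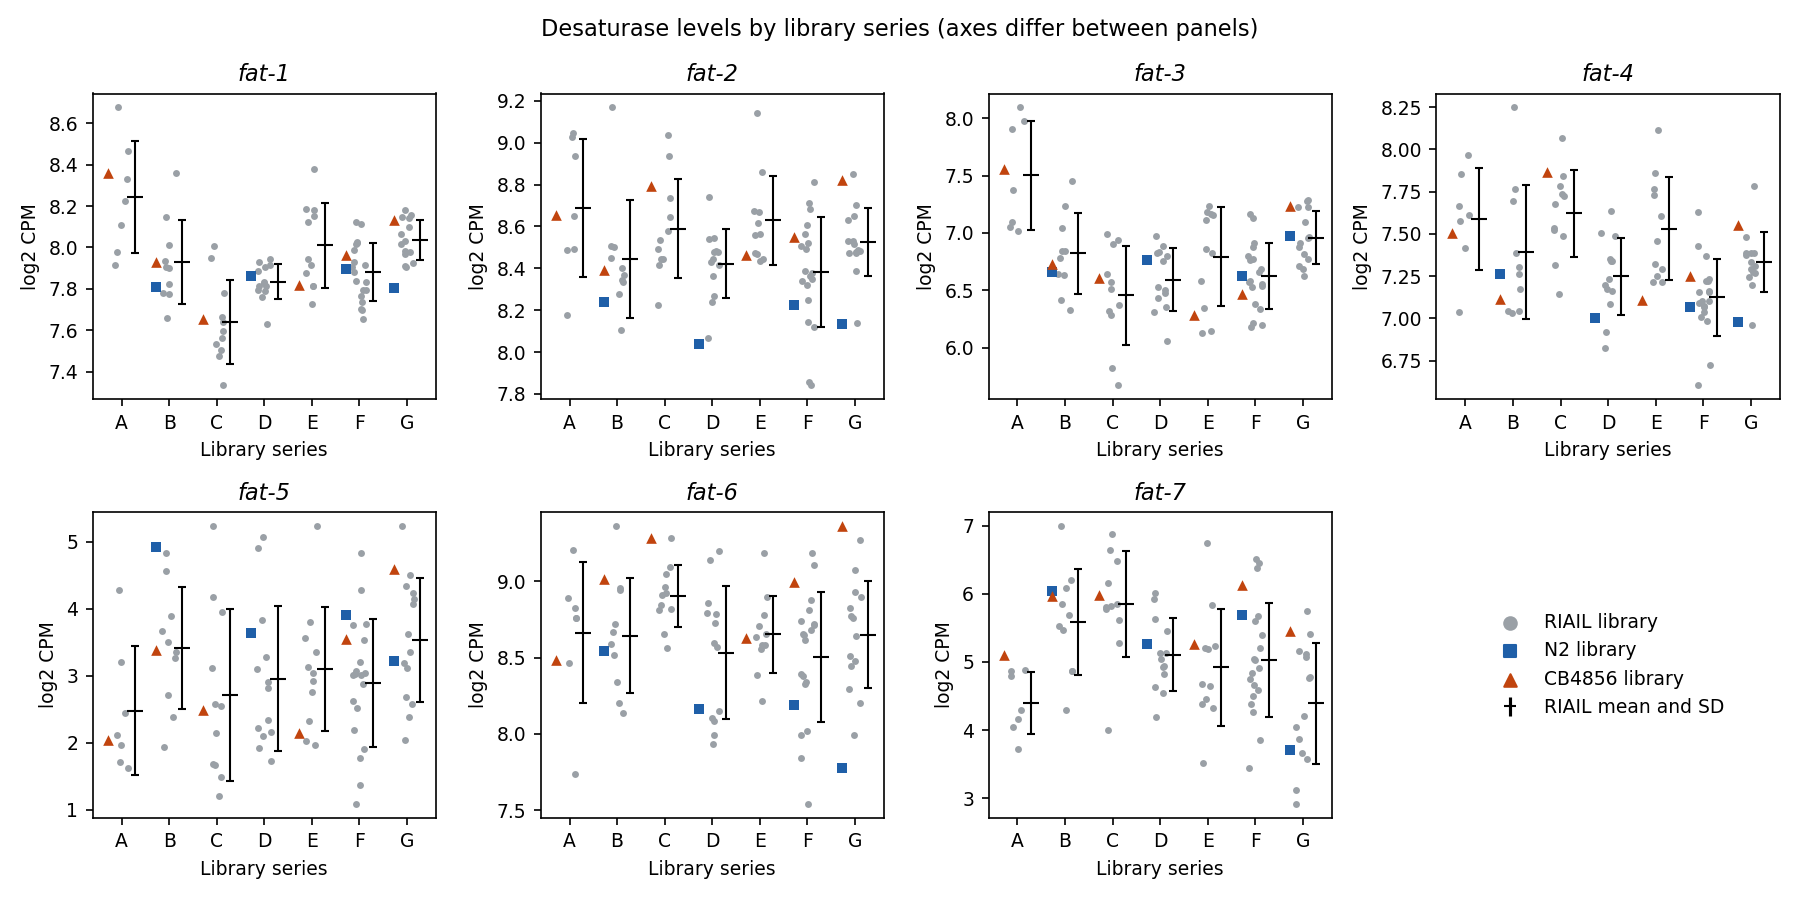
Log2 CPM of each desaturase gene by library series, with RIAILs in grey (mean and SD in black), N2 libraries as squares and CB4856 libraries as triangles, and axes that differ between panels. fat-1 and fat-3 are highest in series A, and fat-7 is low in A and G.

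Of the other pathway genes, 8 of 8 of cytochrome b5 and membrane lipids, 10 of 12 of elongation, 4 of 5 of fatty acid synthesis, 11 of 13 regulators and 2 of 2 other desaturases differed between series, beside the 61.4% above. The smallest edgeR adjusted p-values were those of ttm-5 (6.53e-16), a dihydroceramide desaturase gene, nhr-66 (2.49e-09), scp-1 (1.31e-08), the transcription factor gene pqm-1 (4.07e-08) and drd-5 (7.99e-06).

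Across the 85 RIAILs several desaturase genes varied together. Of 21 pairs, 11 were correlated (Pearson r of log2 CPM, two-sided test with 100000 permutations, Benjamini-Hochberg adjusted over 21 pairs), 9 positively and 2 negatively. The highest values were those of fat-2 with fat-4 and of fat-1 with fat-3. The points share scaling and library composition, and the pairs are not independent of each other. A share over pairs of other genes is not given here, so the count describes these genes only.

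fat-2 and fat-4, whose enzymes work at the delta-12 and delta-5 steps, had r = 0.83 and rho = 0.76 (permutation p = 1e-05, the smallest that these permutations can give, adjusted 2.62e-05 for both). Without QX552 and QX574, the lines farthest from the median of fat-2, r was 0.80, and within series it ran from 0.68 to 0.90. QX552 had 575 CPM of fat-2 and 304 CPM of fat-4, and QX584 had 229 and 97.2 CPM. fat-1 and fat-3 also had r = 0.83 and rho = 0.81 (permutation p = 1e-05, adjusted 2.62e-05 for both), with 0.82 without QX589 and QX546 and 0.40 to 0.93 within series. fat-4 and fat-3, neighbours on chromosome IV, had r = 0.53 and rho = 0.49 (permutation p = 1e-05, adjusted 2.62e-05 for both). The neighbours fat-1 and fat-2 had r = 0.58 and rho = 0.55 at the same p. Differences between these values of r were not tested.

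**Figure D3:**
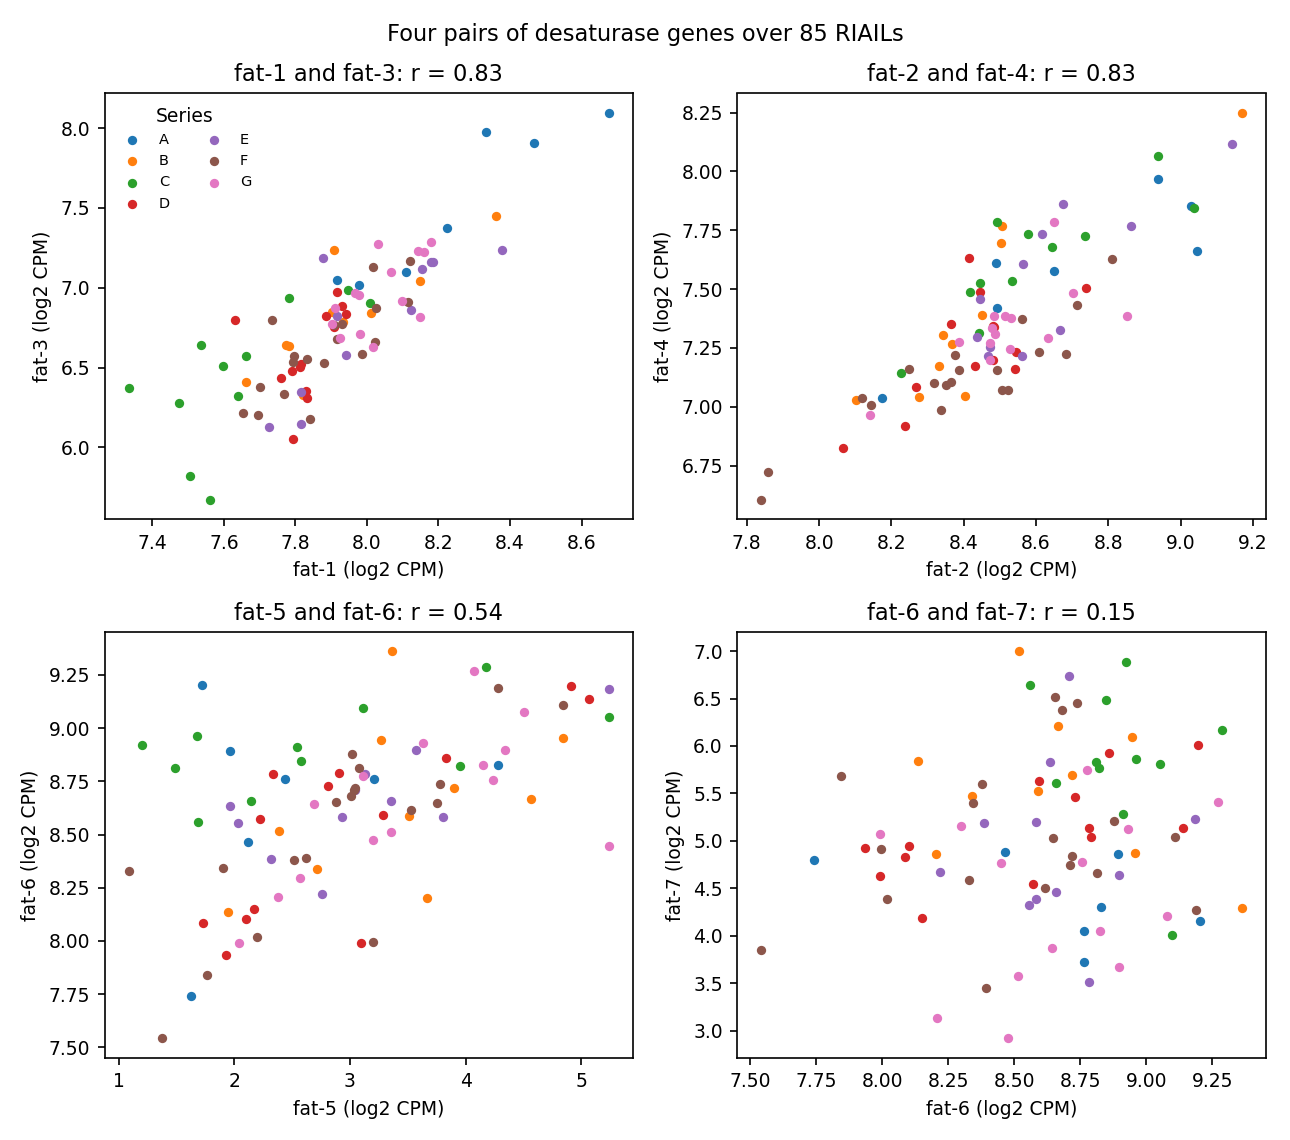
Log2 CPM of 4 pairs of desaturase genes over 85 RIAILs, 1 point per line, coloured by library series. fat-1 with fat-3 and fat-2 with fat-4 follow a line (r = 0.83 for both), whereas fat-6 with fat-7 scatters (r = 0.15).

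Of the delta-9 genes, fat-6 went with several others. It had r = 0.60 and rho = 0.54 with fat-2, 0.57 and 0.57 with fat-4, and 0.54 and 0.52 with fat-5 (permutation p = 1e-05, adjusted 2.62e-05 for each). With fat-7, its close paralog, it had r = 0.15 and rho = 0.14 (permutation p = 0.173 and 0.219, adjusted 0.262 and 0.329), and within series r ran from -0.48 to 0.67. The remaining positive pairs were fat-2 with fat-3 (r = 0.61, rho = 0.57, permutation p = 1e-05 for both, adjusted 2.62e-05) and fat-1 with fat-4 (r = 0.39, rho = 0.33, permutation p = 0.00021 and 0.0026, adjusted 0.00049 and 0.00607). In 8 of the 9 positive pairs r was above 0 within all 7 series, the exception being fat-4 with fat-6 in 1 series.

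fat-7 was negatively correlated with fat-1 (r = -0.29, rho = -0.26, permutation p = 0.00681 and 0.0169, adjusted 0.0143 and 0.0355) and with fat-3 (r = -0.26, rho = -0.23, permutation p = 0.0152 and 0.0346, adjusted 0.0290 and 0.0606). Neither passed the test within series: centred, r was 0.03 and -0.03 (permutation test, adjusted p = 0.867 for both). Without the 2 lines farthest from the median, r was -0.22 for fat-1 and -0.21 for fat-3 (permutation p = 0.0412 and 0.0554). With CPM in place of log2 CPM neither was called (r = -0.21 and -0.19, permutation test, adjusted p = 0.109 and 0.134). With the molting, sperm and oocyte scores taken out, both were called (r = -0.34 and -0.33, permutation test, adjusted p = 0.00326 for both). The 9 positive pairs stayed called when values were centred within series and when these scores were taken out, under which fat-1 with fat-3 had r = 0.82 and fat-2 with fat-4 had r = 0.82.

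**Figure D4:**
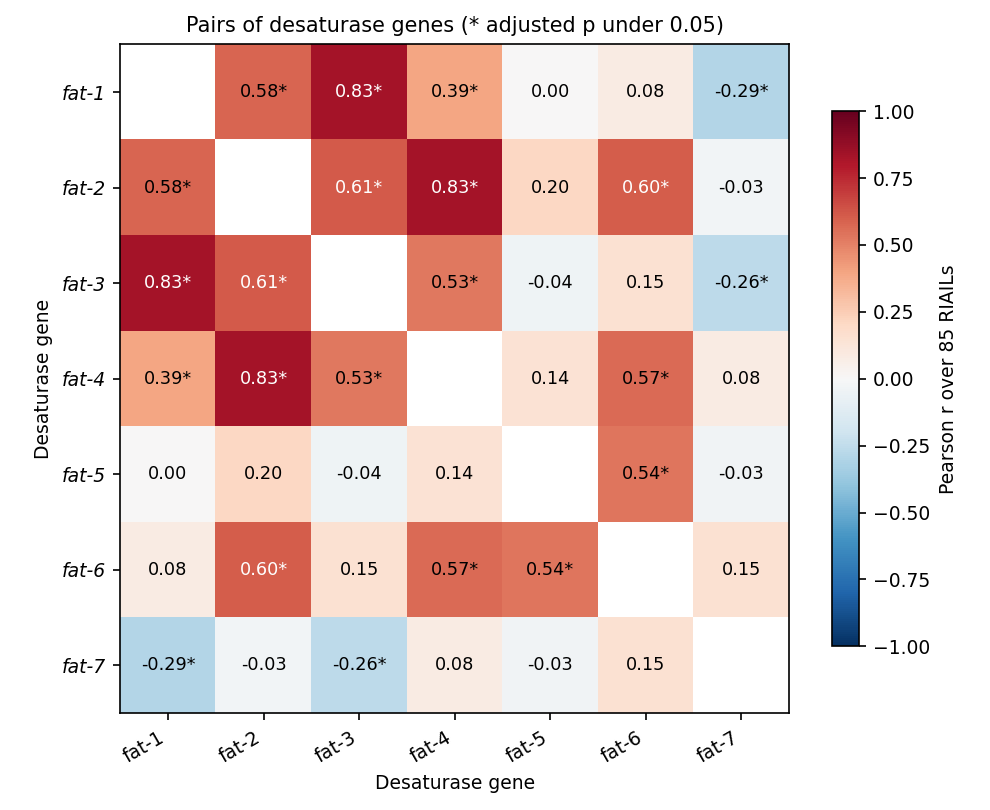
Pearson r over 85 RIAILs for the 21 pairs of desaturase genes, from blue (negative) to red (positive), with asterisks at a permutation adjusted p under 0.05. The asterisks mark 9 positive and 2 negative pairs, and the 2 negative ones involve fat-7.

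Members were next set beside marker lists of stage and tissue, as the mean z score of molting, adult cuticle, vitellogenin, oocyte, sperm and intestinal genes, none of them a desaturase. Of 42 relations over the 85 RIAILs, 26 passed the permutation test adjusted over 42, 8 positive and 18 negative. The share of all genes that would pass is not given here, so this count is no trait particular to the desaturases. The delta-9 genes and fat-2 and fat-4 were higher in lines with more molting gene expression, and lower in lines with more vitellogenin expression, while the relations of fat-1 and fat-3 with the molting score did not pass the test. Of the vitellogenin relations, that of fat-7 (r = -0.32) was -0.10 when centred within series (permutation test, adjusted p = 0.433). That of fat-5 (r = -0.24, permutation adjusted p = 0.0491) missed the threshold without QX501 and QX505 (adjusted p = 0.0524).

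fat-6 had r = 0.58 and rho = 0.53 with the molting score (permutation p = 1e-05, adjusted 0.000105 for both) and r = -0.63 and rho = -0.54 with the oocyte score (same p). Without the 2 lines farthest from the median of the score, these were 0.55 and -0.59. Within series, they ran from -0.05 to 0.87 and from -0.88 to 0.13, with the pooled sign in 6 of 7 series for both. fat-4 had r = 0.46 and rho = 0.52 with the molting score and r = -0.53 and rho = -0.40 with the adult cuticle score (permutation p = 1e-05 for both r, adjusted 0.000105). For fat-4 the molting relation had the pooled sign in 7 of 7 series (0.18 to 0.89 within series), and without the 2 farthest lines r was 0.47 for molting and -0.46 for adult cuticle.

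fat-7 had r = 0.38 with the molting score (rho = 0.35, permutation p = 0.00041 and 0.0011, adjusted 0.00144 and 0.00385) and fat-5 had r = 0.34 (rho = 0.33, permutation p = 0.00151 and 0.00218, adjusted 0.00453 and 0.00654). fat-2 had r = 0.27 (rho = 0.36, permutation p = 0.0128 and 0.00103, adjusted 0.0269 and 0.00385). Without the 2 farthest lines r was 0.38, 0.30 and 0.26. fat-1 had r = -0.10 and fat-3 r = -0.06 with the molting score (permutation p = 0.386 and 0.617, adjusted 0.457 and 0.648).

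Relations with the intestinal score depended on the series. fat-2 had r = 0.32 (rho = 0.26, permutation p = 0.00338 and 0.0173, adjusted 0.00835 and 0.0330), fat-3 r = 0.29 (rho = 0.30, permutation p = 0.00656 and 0.0054, adjusted 0.0153 and 0.0142) and fat-7 r = -0.25 (rho = -0.19, permutation p = 0.0197 and 0.0801, adjusted 0.0360 and 0.112). Centred within series, r was 0.13, 0.08 and -0.14 and none of the 3 passed the permutation test. The single relation of fat-1 that passed, with the vitellogenin score (r = 0.25, rho = 0.21, permutation p = 0.0211 and 0.0552, adjusted 0.0369 and 0.0828), turned to -0.12 when centred. QX552 and QX574, the lines with the most fat-2 and fat-4, had the highest summed molting gene levels (9674 and 9716 CPM), and QX552 had the lowest summed oocyte gene level (194 CPM).

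**Figure D5:**
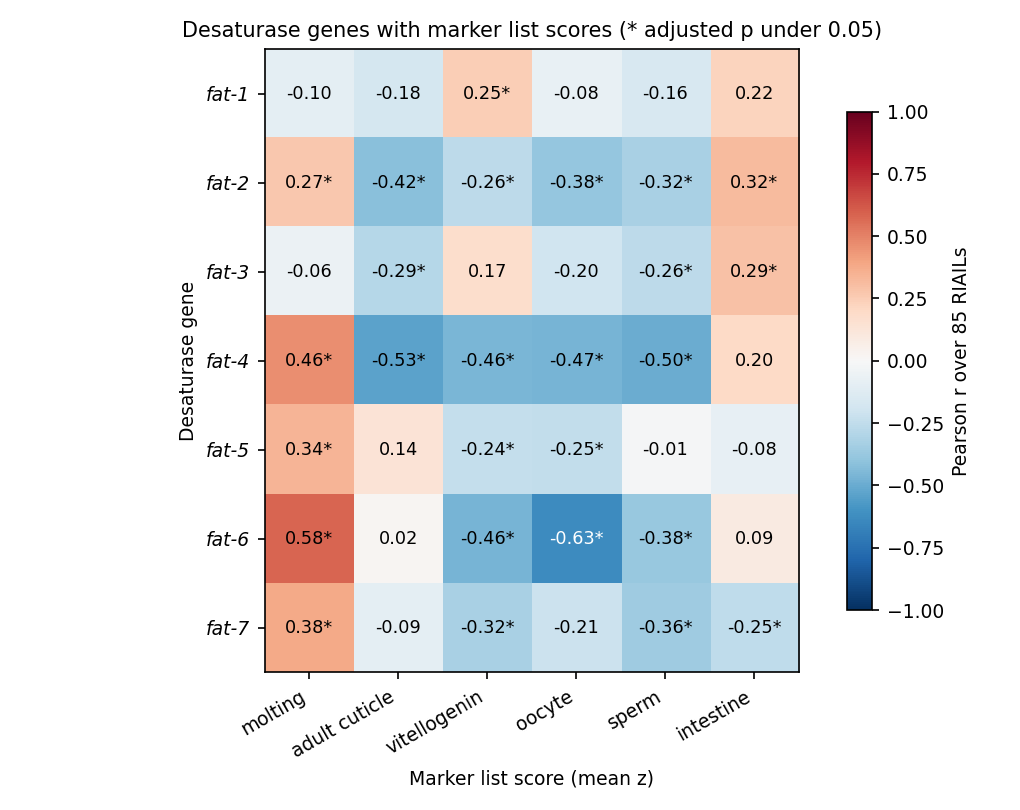
Pearson r over 85 RIAILs of each desaturase gene with 6 marker list scores, with asterisks at a permutation adjusted p under 0.05. The molting column is positive for fat-2, fat-4, fat-5, fat-6 and fat-7 (0.27 to 0.58) and near 0 for fat-1 and fat-3.

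The genes most like each desaturase, by Pearson r of log2 CPM over the 85 RIAILs among 9276 others whose log2 CPM averaged at least 3, are given as a description. fat-4 was most like acl-5, an acyltransferase gene (r = 0.87), fat-2 (0.83) and C14B9.2 (0.82). fat-2 was most like fat-4 (0.83), mboa-3, a membrane-bound O-acyltransferase gene (0.76), and acl-5 (0.75). acl-5 was thus in both sets, and centred within series its r was 0.84 with fat-4 and 0.72 with fat-2.

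fat-1 was most like fat-3 (0.83), F17A9.4 (0.72) and dlat-2, named for a dihydrolipoamide acetyltransferase (0.71). fat-3 was most like fat-1 (0.83), the C-type lectin gene clec-5 (0.71) and vha-12, a vacuolar ATPase subunit gene (0.69). fat-6 was most like C06H5.6 (0.76), plpp-1.3, a phospholipid phosphatase gene (0.75), and lpin-1, the lipin gene (0.75). For fat-7 the values were lower, with T09B9.4 (0.58), pho-14 (0.54) and chtl-1 (0.54), and for fat-5 they were 0.61 with T05E7.1, 0.58 with tyr-6 and 0.57 with fip-6. No desaturase gene was among the 3 most alike of fat-5, fat-6 or fat-7.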

How the data were processed

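RNA of each strain was sequenced at BGI (BGISEQ-500). Reads were examined with FastQC, those of low quality were left out, and the rest were mapped with STAR (version 2.73a) to the WBcel235 genome. Whole-number read counts per gene were deposited by the authors in a table with a column for every library. No source used here names the counter, strand setting or annotation release. Groups came from the labels, and columns were matched by library name. Of 46904 genes, 16622 had no count. No pair of libraries was identical, and the counts of parental libraries of 1 strain gave a chi-square per degree of freedom between 14.0 and 215.

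All genes were fitted in edgeR 4.0.16 under R 4.3.3, after TMM scaling and filterByExpr, with the quasi-likelihood test and a threshold of 0.05 on the Benjamini-Hochberg adjusted p. As alternatives, limma 3.58.1 (voom) and DESeq2 1.42.0 were run, with RLE size factors, other filters, blocks, covariates and left-out libraries. For variation among RIAILs the residual spread and dispersion trend came from the parental libraries. A prior count of 2 was added for log2 CPM. Correlations used numpy 2.4.6 and scipy 1.17.1 under Python 3.11.15. Scripts were tested on simulated data. Genes, lists and alternatives were chosen with earlier results of these data known. The genes named are the 7 desaturases, the 3 most alike of each, the pathway genes called between strains and otherwise the 5 with the smallest p.

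Batch numbers in the titles of 4 N2 and 4 CB4856 libraries were taken to pair them because the labels call them batches. They do not all follow the library letters: the N2 libraries of series B and D share their numbers with CB4856 libraries of series C and E. Deviations from the strain mean correlated at r = -0.511 to 0.684 for the same number and -0.678 to 0.625 for different numbers, so the values themselves show no pairing. Control libraries, the library of QX590, genotypes, lifespans and lipids are not analysed here, and no sequences were used.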

Additional observations from a re-analysis of the deposited data

Results flagged for a closer look

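In the RIAILs of series B, fat-2 stood at 575 CPM in QX552, far from the next line at 364 CPM. On the log2 scale this gap was 0.621 of the range of the 10 lines, above the Dixon limit of 0.466. Of 28 sets of libraries tested in this way (each gene in each group or series of 4 to 10 libraries) 1 was singled out, and chance gives about 1 in 20. QX552 was also highest of all RIAILs for fat-4 (304 CPM) and fat-6 (657 CPM), but had 19.5 CPM of fat-7.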

How the results depend on the processing

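Between strains, 2 of 7 desaturase genes were called under limma voom, DESeq2, RLE size factors, both other filters and a first principal component covariate. Calls over all 15718 genes were 2324 with limma voom, 3508 with DESeq2, 2539 with RLE and 3866 with the component. The other filters gave 2585 of 24969 and 2253 of 14426 genes. With the library letter as a block 0 were called (1 at an unadjusted p under 0.05), beside 481 of all 15718 genes. With the oocyte score as a covariate 0 were called (2 at an unadjusted p under 0.05, a fit chosen after seeing the data), beside 2780 of all 15718 genes. In the paired fit with the batch number as replicate block, 2 were called over 8 libraries, as without the block, and no call of a desaturase gene changed. Of all 15538 genes, 1652 were called with that block and 1566 without it. Leaving out 1 library at a time, 1 or 2 were called. All-gene calls ran from 1570 of 15879 (without N2 replicate 3) to 4604 of 15896 (without N2 replicate 1). The log2 fold change of fat-3 turned to -0.0647 with the replicate block, -0.0215 over the same 8 libraries without it and -0.36 with the intestinal score, and leaving out 1 library at a time the value ran from -0.0184 (without CB4856 replicate 5) to 0.279. With the intestinal score, which cannot be reliably separated from strain, fat-5 turned to 1.17. With the oocyte score fat-7 turned to -0.0444. The causes were not tested. Variation among RIAILs gave 0 under all 7 alternatives run, and library series 4 to 6. Over all genes, 9065 of 16411 were called in the series fit with 4 (without series A). In the series fit with 6 (score covariates) 8333 of 16686 were called. Centred within series, r of fat-1 with fat-7 turned to 0.0319 and of fat-1 with the vitellogenin score to -0.12. With the first principal component of the RIAILs in place of the scores, 4 of 7 genes were called by the permutation test. Their r was negative, at -0.43 for fat-2, -0.64 for fat-4, -0.56 for fat-6 and -0.37 for fat-7. That component held 28.5% of the variance of 5000 genes. The share of all genes that would pass is not given here, so this count is no trait particular to the desaturases. Depth was even and no library was at 0 for a desaturase gene. Lines were compared with 1 library each, and for them line and series cannot be told apart.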
